A study of Vigna radiata with 18 samples.

Results

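Wide peaks are the peaks of 1000 bp or more in the consensus list of open chromatin of mung bean (Vigna radiata) leaves. ATAC-seq reads out accessible DNA through Tn5, a transposase that inserts sequencing tags where chromatin is open. The wide peaks were chosen by their width, end minus start in the deposited list, which is therefore described below and not tested. They numbered 1161 of 50238 peaks, 2.31%, and lay on all 11 chromosomes. The remaining 49077 are called narrower peaks. The study has 18 libraries of wild-type leaves of the cultivar Weilv 9, 3 in each of 6 groups. Pre-conditioned plants (T1) had 100 mM NaCl for 24 h, a salt-free recovery of 48 h and then 100 mM NaCl again, and were sampled at 0, 6 and 48 h of this last bath. Directly stressed plants (T2) had 100 mM NaCl with no earlier bath and were sampled at the same 0, 6 and 48 h. The leaves were the first fully expanded true leaves, nuclei came from frozen tissue, and the labels also carry the tag protoplast. The list is common to all libraries and holds a position and no value for any of them, so a wide peak cannot be placed in one regime, one time or one replicate, and the labelled tissue cannot be checked against marker genes.

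In plant nuclei most DNA is wrapped in nucleosomes, and short stretches kept free of them by bound proteins take up Tn5 and appear as ATAC-seq peaks. Such stretches are known chiefly from promoters, just upstream of genes, and from enhancers farther away. A wide peak covers several nucleosome lengths and can hold 1 long accessible stretch or several neighbouring ones that were called as a single interval. A list of merged intervals does not tell these apart. Gene positions and sequence of the genome build of the list were not used here, so wide peaks are named by position only. Positions are in the coordinates of the list, counted from 1, and its build is not given in the sources used here.

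Most wide peaks were only a little over the limit. The middle one measured 1144 bp, the quartiles were 1058 and 1293 bp, and there was a mean of 1239 bp ± 329 (SD over peaks) and a highest value of 4743 bp. The median of the narrower peaks was 286 bp. Widths from 1000 to under 1100 bp took in 456 wide peaks, 39.3%, and widths from 1100 to under 1200 bp a further 269. There were 136 wide peaks of 1500 bp or more, 21 from 2000 to under 3000 bp and 9 of 3000 bp or more. Although few, wide peaks held 1.44 Mb of the 18.04 Mb under all peaks, 7.97%. No break in the widths marks the limit: the 10 members nearest to it measured 1000 to 1001 bp and the 10 excluded peaks nearest to it 996 to 999 bp.

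The share of peaks that were wide varied little between chromosomes. It was 2.67% on chromosome 2 (95 of 3558 peaks, exact Clopper-Pearson 95% interval 2.17 to 3.25), 2.65% on chromosome 8 (224 of 8450, 2.32 to 3.02) and 2.44% on chromosome 11 (101 of 4134, 1.99 to 2.96). The lowest shares were 1.83% on chromosome 5 (63 of 3437, 1.41 to 2.34), 1.97% on chromosome 9 (72 of 3663, 1.54 to 2.47) and 1.97% on chromosome 1 (65 of 3300, 1.52 to 2.50). These intervals cover counting error only. The mean over chromosomes was 2.27% ± 0.271 (SD, n = 11 chromosomes), and on 10 of them the interval held the share of the whole list. Chromosome 8 was the exception, with a lower bound of 2.32%. The whole list includes the chromosome compared. Against the share on the other chromosomes, chromosome 5 also fell outside, with an upper bound of 2.339% against 2.346%. Per Mb of span, from the first base to the last peak, chromosome 8 held 2.98 wide peaks and chromosome 5 held 1.41, against 2.33 over all chromosomes. Chromosomes 1 and 5 thus had the fewest wide peaks per Mb, and they also had the fewest peaks of any width, 78.9 and 76.8 per Mb.

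**Figure D1:**
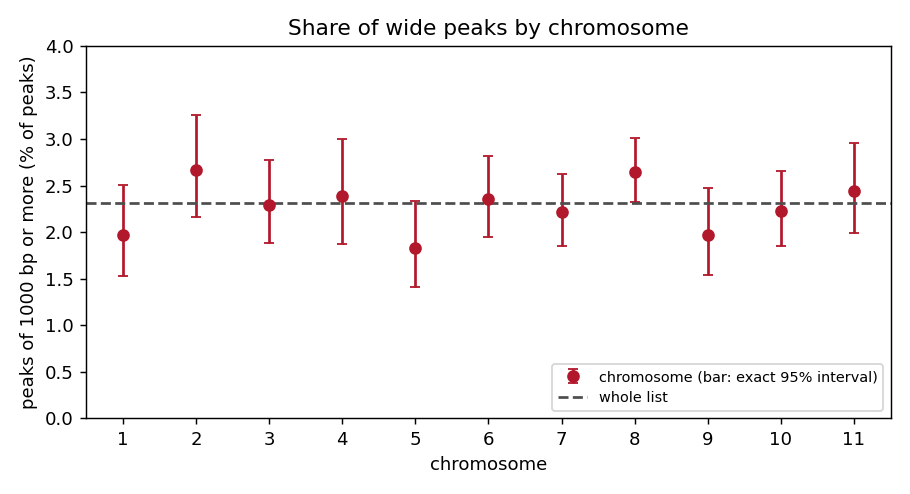
Share of peaks that are 1000 bp or wider on each chromosome (points), with the exact 95% interval for counting error, and the share in the whole list (dashed line, 2.31%). Chromosome 2 is highest at 2.67% and chromosome 5 lowest at 1.83%, and the intervals of most chromosomes overlap.

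The very widest peaks were unevenly placed. Of 30 peaks over 2000 bp, chromosome 11 held 7, chromosome 7 held 6 and chromosome 5, with the fewest wide peaks, held 5, whereas chromosome 8, with the most wide peaks, held 1 and chromosomes 3 and 4 held none. The 7 of chromosome 11 all lay in a single stretch of 86.5 kb, and 3 of the 6 of chromosome 7 lay in 1 run of wide peaks of 22.1 kb, so single places carry much of this unevenness. Outside the 2 largest runs, described below, 22 of the 30 remained. The widest peak of chromosome 11 spanned 18081949 to 18086691 (4743 bp), that of chromosome 6 30243418 to 30247128 (3711 bp) and that of chromosome 5 34894489 to 34898050 (3562 bp). Chromosome 1 had a peak of 3246 bp (5379468 to 5382713). Chromosome 7 had one of 3100 bp (40013596 to 40016695). The widest peak of chromosome 2 was at 552793 to 555180 (2388 bp), that of chromosome 8 at 8250803 to 8252940 (2138 bp), that of chromosome 10 at 36702956 to 36705082 (2127 bp) and that of chromosome 9 at 24968634 to 24970730 (2097 bp). On chromosomes 4 and 3 the widest peaks measured 1968 bp (1219394 to 1221361) and 1941 bp (24348106 to 24350046).

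These 11 peaks had unlike surroundings. Those of chromosomes 1, 7 and 11 had another wide peak within 5 kb, centre to centre, at 2.85, 2.30 and 4.82 kb. The widest peak of chromosome 5 stood alone, with 41.1 kb without a peak on its left, 8.27 kb on its right and the nearest other wide peak 1265 kb away. The widest peak of chromosome 1 bordered on a peak of 2129 bp at a gap of 165 bp, and had no peak for 31.4 kb on the other side.

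Wide peaks differed from narrower peaks of the same neighbourhood in where their nearest neighbour stood. Each wide peak was set against the narrower peaks centred in the same 1 Mb bin, and the gap was taken from edge to edge. The nearest peak lay 5 to 10 kb away for 331 of 1161 wide peaks, 28.5%, against 20.8% of the narrower peaks of the same bins. The difference was 7.53 percentage points ± 2.89 (SD, n = 11 chromosomes), and wide peaks had the higher share on 11 of 11 chromosomes. It was smallest on chromosome 4, where 23.9% of wide peaks and 22.2% of narrower ones had such a gap, and largest on chromosome 8, with 32.1% of wide peaks against 21.7% of narrower ones.

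Gaps of 1 to 5 kb were in turn scarcer. They were the nearest gap for 420 wide peaks, 36.2%, against 44.4% of the narrower peaks, a difference of -8.04 points ± 4.41 (SD, n = 11 chromosomes), with the lower share in wide peaks on 10 chromosomes. Chromosome 4 was the exception, at 40.8% of wide peaks and 39.9% of narrower ones. The deficit was deepest from 2 to 3 kb, where 93 wide peaks, 8.01%, had their nearest neighbour, against 11.5% of narrower peaks, and there the share was lower on 11 of 11 chromosomes. Under 1 kb the shares were 25.8% of wide and 25.6% of narrower peaks, a difference of 0.596 points ± 2.27 (SD, n = 11 chromosomes) with wide peaks higher on 6 chromosomes. From 10 kb on, 9.47% of wide peaks and 9.30% of narrower peaks had their nearest neighbour. The classes of gap were chosen with the gaps of this list in view. Chromosomes are parts of 1 genome and not biological replicates, and no p-value was computed for this or any other contrast below.

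**Figure D2:**
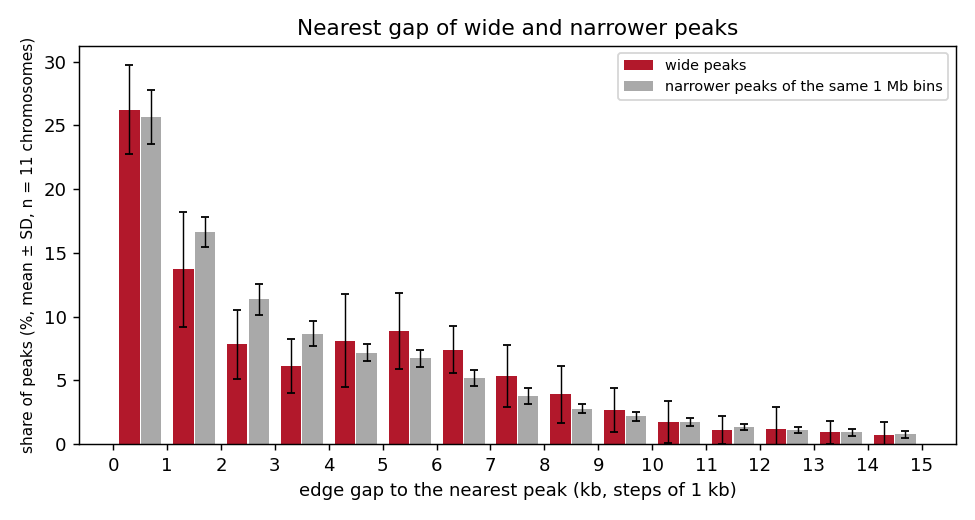
Share of peaks by the edge gap to their nearest peak, in steps of 1 kb, for wide peaks (red) and for the narrower peaks of the same 1 Mb bins (grey), as mean and SD over 11 chromosomes. Wide peaks are fewer from 1 to 4 kb and more frequent from 4 to 10 kb, and both kinds have about 26% of their nearest gaps under 1 kb.

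The same shift was seen when both sides of a peak were counted, a count that includes the nearest gaps given above and is not independent of them. Of 2321 gaps beside wide peaks, 24.9% measured 1 to 5 kb, against 31.4% beside narrower peaks of the same bins, and 29.6% measured 5 to 10 kb, against 25.3%. Gaps of 10 to 20 kb made up 21.5% beside wide peaks and 19.0% beside narrower ones. Gaps under 500 bp made up 8.10% beside wide peaks and 7.25% beside narrower ones, a difference of 0.857 points ± 1.18 (SD, n = 11 chromosomes) that was above 0 on 10 chromosomes. From 500 bp to under 1 kb the shares were 6.16% and 6.76%, lower beside wide peaks on 8 chromosomes, and over all gaps under 1 kb they were 14.3% and 14.0%, higher beside wide peaks on 5. As a median, the nearest peak was 3.37 kb from the edge of a wide peak and 2.67 kb in the narrower peaks of its bin. The log2 ratio was 0.26 ± 0.32 (SD, n = 11 chromosomes), positive on 9 chromosomes, lowest on chromosome 4 (-0.41) and highest on chromosome 1 (0.83).

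The shares moved with width in different ways. A nearest gap of 5 to 10 kb was found for 19.8% of peaks of 105 to under 200 bp, 21.0% from 200 to under 300 bp, 21.3% from 300 to under 500 bp, 21.5% from 500 to under 700 bp and 21.2% from 700 to under 900 bp. From 900 to under 1000 bp it was 25.1% (exact 95% interval 21.6 to 28.8), from 1000 to under 1200 bp 29.1% (25.8 to 32.6), from 1200 to under 1500 bp 26.7% (21.7 to 32.1) and from 1500 bp on 29.4% (21.9 to 37.8). Nearest gaps of 1 to 5 kb were already scarcer among the broader of the narrower peaks. Their share was 45.9% from 105 to under 200 bp (45.0 to 46.8), 44.9% from 200 bp, 43.5% from 300 bp, 42.0% from 500 bp (40.7 to 43.3) and 42.2% from 700 to under 900 bp. It was 37.1% from 900 to under 1000 bp, 37.4% from 1000 to under 1200 bp, 37.7% from 1200 to under 1500 bp and 26.5% (19.3 to 34.7) from 1500 bp on. The median nearest gap did not lengthen in every wide class: it was 3.36 kb from 1000 to under 1200 bp, 2.675 kb from 1200 to under 1500 bp and 4.63 kb from 1500 bp on, against 2.68 to 2.735 kb in the classes under 900 bp. In the narrower peaks of 900 to under 1000 bp it was 3.47 kb, longer than from 1000 to under 1200 bp. The limit of 1000 bp marks no break in these values.

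**Figure D3:**
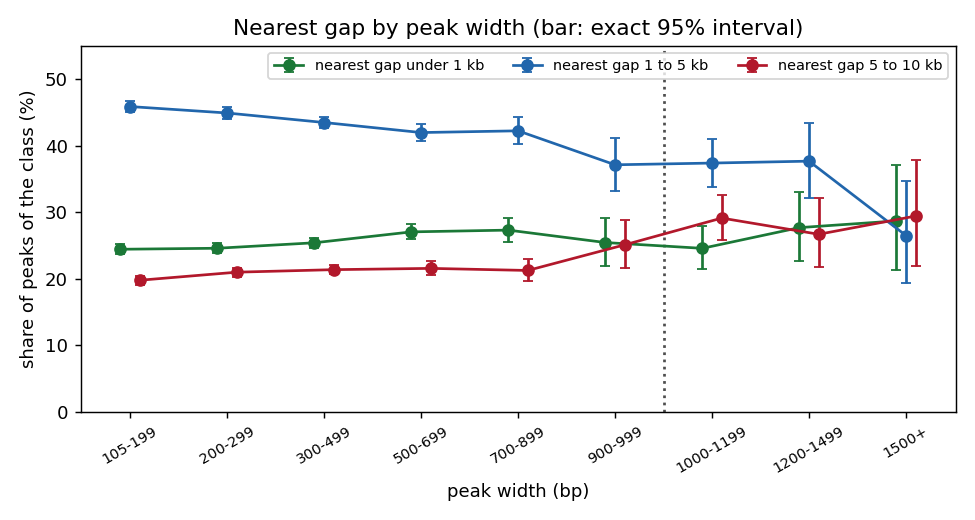
Share of the peaks of each width class (horizontal axis, bp) whose nearest gap is under 1 kb (green), 1 to 5 kb (blue) or 5 to 10 kb (red), with exact 95% intervals, and the limit of 1000 bp (dotted line). The share with 5 to 10 kb stays between 19.8% and 21.5% up to 900 bp and lies between 25.1% and 29.4% above it.

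The numbers of peaks around wide and narrower peaks differed most at gaps of 2 to 5 kb. Peaks of any width at an edge gap of 2 to 5 kb numbered 91.3 per Mb around wide peaks and 110 around the narrower peaks of the same bins, a ratio of 0.828, lower on 10 of 11 chromosomes. At 5 to 10 kb the numbers were 137 and 124 per Mb, a ratio of 1.10, and at 10 to 20 kb they were 127 and 119 per Mb, with fewer peaks around the wide ones on 1 chromosome. From 50 to 100 kb they were 115 and 114 per Mb. Within 10 kb of the edges the missing and the added peaks nearly cancelled, with 2.44 other peaks around a wide peak and 2.45 around a narrower one over all bins, and a mean of the chromosome differences of 0.016 ± 0.269 (SD, n = 11 chromosomes). Counted from centre to centre the difference was -0.11 ± 0.21, a measure in which the body of a wide peak keeps the centres of its neighbours away. Without the 16 wide peaks of the 2 largest runs, described below, it was -0.192 ± 0.175 from centre to centre, above 0 on 1 chromosome, and -0.076 ± 0.203 from the edges. Within 5 kb the difference was -0.235 ± 0.107 from centre to centre, above 0 on 0 of 11 chromosomes, and -0.123 ± 0.140 from the edges, above 0 on 2.

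A mean excess of open bases around wide peaks came in large part with the 2 largest runs of wide peaks, described next. Within 50 kb of the centre, 4511 bp lay under other peaks around wide peaks, against 4280 bp around narrower ones, and the mean of the chromosome differences was 255 bp ± 503 (SD, n = 11 chromosomes). Chromosome 11 stood at 1489 bp. Chromosomes 1 and 4, which hold neither run, stood at 681 and 548 bp, and 4 chromosomes were below 0. Without the 16 wide peaks of the 2 runs the mean was 38.7 bp ± 315, and chromosome 11 stood at -355 bp. From the edges the mean was 304 bp ± 525, above 0 on 9 chromosomes. Without the runs it was 84.4 bp ± 310 from the edges, above 0 on 7. The runs were picked as the groups with most wide peaks, so leaving them out tends to lower this mean.

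The distance from wide peaks to other wide peaks had a median close to that from narrower peaks of the same bins. From a wide peak to the nearest other wide peak the median distance between centres was 124 kb, with quartiles of 46.8 and 283 kb, a shortest value of 1.26 kb and a longest of 2.03 Mb. Narrower peaks of the same bins, measured to the same wide peaks with the matched one left out, were at a median of 131 kb. The log2 ratio of the distances was -0.09 ± 0.26 (SD, n = 11 chromosomes), below 0 on 7 chromosomes and above 0 on 4. Its direction thus varied between chromosomes. Chained at up to 20 kb between edges, 1007 wide peaks (86.7%) were alone and 154 (13.3%) formed 68 runs. Of these runs 60 were pairs, 6 held 3 wide peaks, 1 held 6 and 1 held 10. No such share was computed for an equal number of narrower peaks. The 86.7% and 13.3% therefore describe the list and are not given as traits of wide peaks.

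The run of 10 lay on chromosome 11 at 18046324 to 18086691, at 48.2% of the span of the chromosome. It measured 40.4 kb and held 25 peaks in all, 10 wide and 15 narrower, which covered 66.0% of its bases. Its wide peaks measured, in order along the chromosome, 2424, 2425, 1027, 1456, 1592, 2335, 3304, 1398, 1235 and 4743 bp. The gaps between its peaks ran from 111 to 2683 bp, with a median of 346 bp, so no stretch of 3 kb inside it was free of peaks. Another 2 wide peaks of 4383 and 3814 bp followed at 18117503 and 18128998, and the bin from 18000001 to 19000000 held 16 wide among 147 peaks, 10.9%.

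The run of 6 lay on chromosome 7 at 40012301 to 40034398, over 22.1 kb, with 10 peaks that covered 59.8% of it. Its wide peaks measured 1091, 3100, 2370, 2098, 1068 and 1902 bp, and its longest gap was 3392 bp. There were 6 runs of 3 wide peaks, and the 3 of them with most bases under wide peaks were looser. On chromosome 4 the run at 7459836 to 7480140 was 31.4% covered and that at 5540417 to 5579563 was 10.6% covered. On chromosome 2 the run at 2374373 to 2385400 had no narrower peak inside and was 33.1% covered.

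**Figure D4:**
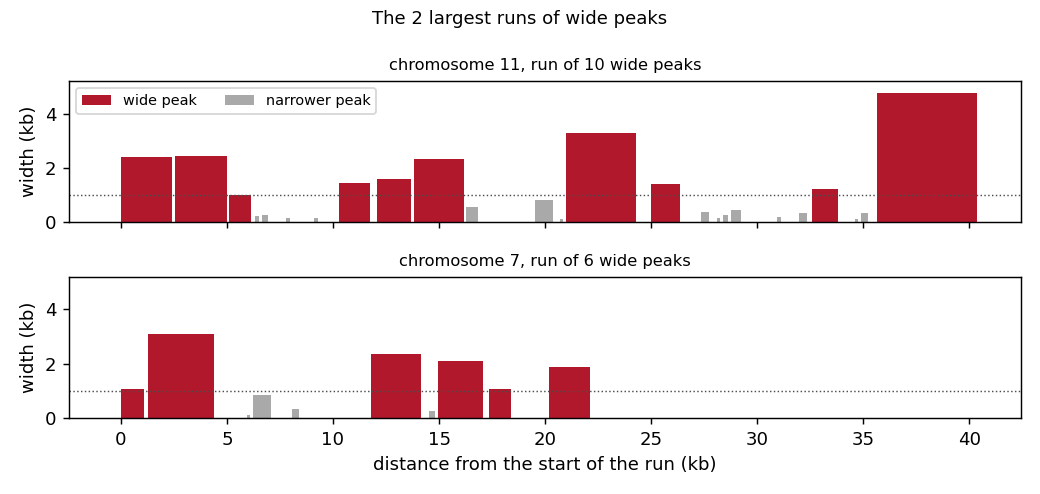
The 2 largest runs of wide peaks, on chromosome 11 (10 wide peaks, 40.4 kb) and chromosome 7 (6 wide peaks, 22.1 kb), drawn to scale as distance from the start of the run. Each bar is a peak, its breadth and height both giving its width (red wide, grey narrower), and the dotted line marks 1 kb. Wide peaks take up 21939 of 40368 bp on chromosome 11 and 11629 of 22098 bp on chromosome 7. The gaps between successive peaks of any width have medians of 346 and 403 bp.

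Close wide neighbours came in part from these 2 runs. At an edge gap under 1 kb there were 13.8 other wide peaks per Mb around wide peaks, against 3.82 around narrower peaks of the same bins, a ratio of 3.61, with the higher value around wide peaks on 8 of 11 chromosomes. Without the wide peaks of the 2 runs it was 6.99 against 3.31 per Mb, a ratio of 2.11, from 16 neighbours with each pair counted from both sides. At 1 to 2 kb no wide peak outside the 2 runs had a wide neighbour, against 2.60 per Mb around narrower peaks of the same bins. At 2 to 5 kb the ratio was 1.30 with the runs and 0.787 without them, so its direction turned. At 5 to 10 kb it was 1.95 with the runs and 1.31 without them, at 10 to 20 kb 1.47 and 1.08, and at 20 to 50 kb 1.10 and 1.09. Among all flanking peaks, 3.70% beside a wide peak were wide, against 2.41% beside narrower peaks of the same bins, a difference of 1.30 points ± 1.95 (SD, n = 11 chromosomes), or 0.73 ± 1.61 without the runs. The mean width of the flanking peaks was 380 bp beside wide peaks and 362 bp beside narrower ones, a mean of the chromosome differences of 20.02 bp ± 26.9, or 11.3 bp ± 20.9 without the runs. In 43 cases 2 wide peaks followed each other with no peak between, 15 of them with a gap under 1 kb, and 8 of these 15 lay outside the 2 runs.

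**Figure D5:**
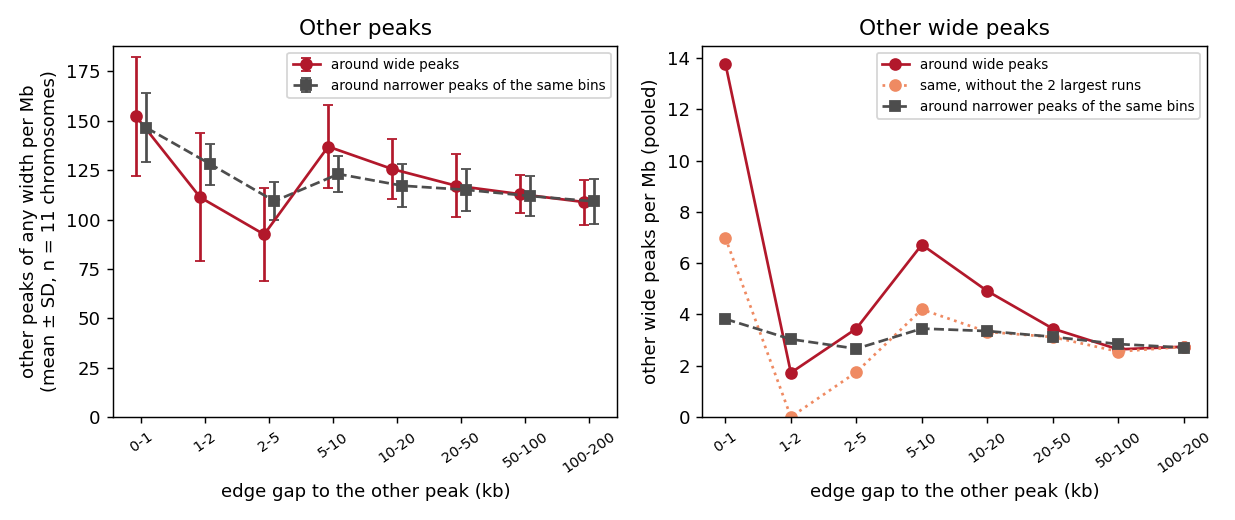
Other peaks of any width (left, per Mb, mean and SD over 11 chromosomes) and other wide peaks (right, per Mb, pooled) by their edge gap from a wide peak (red) or from a narrower peak of the same 1 Mb bins (grey, dashed). The dip at 2 to 5 kb (91.3 against 110 per Mb, pooled) and the excess at 5 to 10 kb are on the left. On the right the excess of wide peaks under 1 kb is 3.61-fold, or 2.11-fold without the 2 largest runs (orange, dotted). The 2.11 was taken against 3.31 per Mb around narrower peaks without the runs, a reference that is not drawn.

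Along the chromosomes wide peaks followed the other peaks. The central 20% of the span had 2.38% ± 0.636 wide peaks and the outer 40% (20% at each end) had 2.28% ± 0.467 (SD, n = 11 chromosomes). The difference of 0.103 points ± 0.624 was positive on 7 chromosomes. It was -0.007 ± 0.621 without the 2 runs, 1 of which is central. The lowest values were on chromosome 2, with 2.09% in the centre against 3.17% outside, and on chromosome 1, with 1.19% against 2.06%, where the centre held 4 wide peaks. Chromosome 8 had 3.34% in the centre and 2.82% outside.

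Wide peaks occurred in 424 of 504 bins of 1 Mb. A total of 80 bins had none, 228 had 1 or 2, 138 had 3 or 4 and 58 had 5 or more. After the bin on chromosome 11, the most were 9 of 162 peaks on chromosome 4 (7000001 to 8000000) and 8 of 134 peaks on chromosome 8 (71000001 to 72000000), and 8 bins had 7. Bins with a wide peak held a median of 109 peaks and bins without one 68.5. At an equal share in every bin, more peaks already make a wide one more likely. The direction of this difference is therefore no result about wide peaks. The share of wide peaks was 2.06% in bins of at most 86 peaks (exact 95% interval 1.74 to 2.42), 2.11% from 87 to 106 peaks, 2.27% from 107 to 120 and 2.60% from 121 to 174 peaks (2.36 to 2.85). Share and number of peaks per bin had a mean Spearman rho of 0.139 ± 0.183 over chromosomes, with 29 to 76 bins each, above 0 on 8 of 11 chromosomes, from -0.218 on chromosome 5 to 0.386 on chromosome 2. Both values share the peak count of the bin, and the last bin of a chromosome is short. A bin rich in peaks could still have no wide one. The richest of the 80 such bins was at 11000001 to 12000000 on chromosome 4, where 144 peaks were all narrower.

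Long stretches had narrower peaks only, and those given here were picked as the longest of each chromosome. With 2.31% of all peaks wide, a stretch of few peaks would hold few wide ones at that share. The longest was 6.00 Mb on chromosome 1 (17840882 to 23837947) with 247 narrower peaks, then 5.15 Mb on chromosome 2 (15543202 to 20693719) with 176. Chromosome 3 had 3.54 Mb (12704821 to 16243685) with 268 and chromosome 5 3.53 Mb (12210794 to 15744390) with 302. Chromosome 7 had 2.85 Mb (35768801 to 38621161) with only 45 narrower peaks and chromosome 8 2.44 Mb (38693210 to 41137467) with 76. On chromosomes 6, 11, 4, 10 and 9 the longest stretches were 2.36, 2.14, 1.94, 1.83 and 1.73 Mb and held 269, 236, 237, 150 and 180 narrower peaks in this order.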

How the data were processed

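Per the labels' protocols, leaf nuclei of 18 libraries were cut with Tn5 and sequenced in pairs. The authors deposited 1 list of consensus peaks with 3 columns (chromosome, start counted from 0, end) and 0 columns of a library. The sources used here do not state depth, peak height, read shift, threshold, merging of libraries or genome build. The submitters' processing notes name MACS3 3.0.3 and bedtools 2.28.0, with no role. Joining peaks of several libraries can widen them, and its part in any result was not tested. A RefSeq gene table of the assembly Vradiata_ver6 did not match the coordinates (412 wide peaks lay past its last gene) and was not joined.

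Widths, gaps, neighbours and bins of 1 Mb, placed by peak centre, were computed in pandas 2.3.3 (Python 3.11.15, SciPy 1.17.1, numpy 2.4.6) and drawn with matplotlib 3.10.9. Each wide peak was compared with the median (distances) or mean (numbers, bases, flanking widths) of at least 3 narrower peaks of its bin. For bases, flanks and distances to wide peaks it was itself left out of what they were measured against. Values were summarised per chromosome. The log2 nearest gap, peaks within 10 kb of the edges, wide flanks and distance to wide peaks were checked on simulated lists. The gap classes and the numbers of peaks per Mb by gap were not. Passing this check does not vouch for small differences. Regions named are the widest peak and the longest stretch without a wide peak of each chromosome. The 5 largest runs (by wide peaks, ties by their bases) and the bins with most wide peaks are also named. Outside these rules, the richest bin without a wide peak and the wide peaks that follow the largest run are given. The peaks, measures and gap classes were chosen with earlier results of these data known.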

Additional observations from a re-analysis of the deposited data

How the results depend on the processing

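Of 189 recomputed values, 173 moved by less than the spread over chromosomes or the counting interval (1.5 times for a count) and 16 by more. The 173 include every value that left 1 chromosome out of a mean over 11. Such a value cannot move by the spread over chromosomes, by construction, so the 173 overstate how stable the results were. A limit of 800 bp gave 2646 peaks, 23.2% in runs and an excess of nearest gaps of 5 to 10 kb of 4.24 points. With 1500 bp there were 136 peaks, 17.6% in runs, and chromosome 2 stood at 1.45 times the list. The gap differences were then 11.3 points ± 14.0 (5 to 10 kb, above 0 on 8 of 11 chromosomes) and -17.2 points ± 9.11 (1 to 5 kb). The bases within 50 kb differed by 1094 bp ± 2051, above 0 on 7. The flanking width differed by 92.5 bp ± 146, above 0 on 10. The wide flanks differed by 3.39 points ± 7.64, above 0 on 3. The log2 distance to wide peaks was -0.64 ± 1.29, above 0 on 2. These spreads are SDs over 11 chromosomes. The 136 peaks still include members of the 2 runs, 8 of them over 2000 bp. A chain of 10 kb put 7.58% in runs and one of 50 kb 26.9%. Within 50 kb of the centre the difference in other peaks was 0.186 ± 0.742, above 0 on 3 of 11 chromosomes. Keeping the matched wide peak as a target gave a log2 distance of 0.51, which by construction brings the narrower peaks nearer. The excess at 5 to 10 kb kept its sign in every alternative (4.24 to 11.3 points), as did the deficit at 1 to 5 kb (-17.2 to -5.28) and the log2 nearest gap (0.14 to 0.58). Centre against ends changed sign with 800 bp (-0.157) and the share against bin density with 1500 bp (-0.0102). The causes were not tested. Alternatives with gap classes, edges, the 2 runs and the kept peak were added after the data were seen. No paired analysis was possible because no column belongs to a library, and no replicate could be left out. Read depth is unknown.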

Other observations

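Some wide peaks lay where open chromatin was sparse. The 18 bins of 1 Mb with at most 20 peaks held 179 peaks in all, of which 2, in 2 bins, were wide. That is 1.12% (exact 95% interval 0.136 to 3.98), an interval that holds the 2.31% of the whole list. The widest peak of chromosome 3 (24348106 to 24350046, 1941 bp) was in a bin of 14 peaks, with 49.6 kb to its left free of peaks and 4.59 kb to its right.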
